A study of Mus musculus with 3 samples.

Results

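Mmp13-high LepR+ stromal cells are marrow stromal cells with abundant RNA for Mmp13, the gene of the collagenase MMP-13. They were chosen by RNA counts in 3 single-cell libraries, each from sorted marrow stroma of 1 mouse genotype. A cell was kept with at least 500 genes, at least 1000 unique transcript counts (UMIs) and at most 10% mitochondrial UMIs. It belonged to the LepR+ gate with at least 30 Cxcl12 UMIs per 10000, at least 1 Lepr UMI, fewer than 5 UMIs per 10000 of Alpl and Wif1 together, at most 5 hemoglobin UMIs and no Ptprc UMI. Of the 2915 cells in that gate, the 707 with at least 10 Mmp13 UMIs per 10000 were called Mmp13-high, out of 8336 kept cells in all. The other 2208 cells of the gate served for comparison. Mmp13 chose the cells, so every contrast with the other LepR+ cells is a description of the cells the rule split, with no test.

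The study asked how connexin 43 (Cx43) channels of osteocytes bear on marrow stromal cells. All 3 groups were C57BL/6 mice of 6 to 8 weeks. The WT group was set beside a pair of transgenic lines aimed at the Cx43 of osteocytes, and whether the stromal cells sequenced here carry the mutant RNA was not tested. According to the series design, R76W inhibits the gap junctions between osteocytes, while the deletion of residues 130 to 136 blocks both gap junctions and hemichannels. The library labelled D130 was read as that deletion, which its label does not spell out. The promoter that drives the transgenes and the number of mice pooled per library are not given in the sources used here. Flushed marrow and collagenase-digested bone fragments were sorted after a stain with antibodies to CD51 and PDGFRα and to CD31, CD45 and Ter119, and made into droplet libraries that read the 3′ end of transcripts. Each genotype is 1 library, so library and genotype cannot be told apart, no difference between genotypes was tested, and every interval below is a 95% interval that covers counting error only.

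The 3 libraries held 7352, 3317 and 4245 barcodes (WT, R76W and D130, the order used throughout) with 29558251 to 81837778 UMIs. After the filters on cells, 4371, 1790 and 2175 cells remained. Erythroid cells, defined by at least 50 hemoglobin UMIs and no Cxcl12 UMI, made up 38.8% of the kept WT cells, 11.0% in R76W and 12.2% in D130, so shares below are taken within the LepR+ gate. The kept cells of each pair of libraries shared 1 barcode, and no Mmp13-high cell carried a barcode shared between libraries.

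LepR+ stromal cells, also called Cxcl12-abundant reticular cells, lie around marrow sinusoids, supply Cxcl12 and stem cell factor to blood-forming cells, and are a source of both adipocytes and osteoblasts in the adult. MMP-13, or collagenase-3, cleaves fibrillar collagen and aggrecan, and in bone it is best known from hypertrophic chondrocytes, osteoblast-lineage cells and fracture repair. Its gene is a textbook target of Runx2 and of AP-1, the dimers of Fos and Jun proteins.

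Mmp13 lies on mouse chromosome 9 at chr9:7272514-7283331, plus strand (GRCm38). The 250 bases before its RefSeq start (build GRCm38.p6, chr9:7272264-7272513, plus strand) are printed because this gene defines the cells and because genes for subunits of AP-1 and for Runx2 are among the measured values below. Capitals mark the letters TGACTCA, an AP-1 motif, and ACCACA, a Runx motif, both searched on both strands; the motifs do not overlap.
Mmp13: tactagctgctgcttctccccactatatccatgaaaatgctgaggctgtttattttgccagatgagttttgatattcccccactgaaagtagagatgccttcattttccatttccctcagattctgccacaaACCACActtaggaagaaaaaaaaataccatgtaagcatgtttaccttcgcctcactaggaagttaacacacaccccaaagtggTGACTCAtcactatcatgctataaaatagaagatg
The AP-1 letters stand 35 to 29 bases before the start and the Runx letters 118 to 113 bases before it. Of 27025 RefSeq promoters of the same length, 4.43% hold the AP-1 letters, 14.2% the Runx letters and 0.744% both. RefSeq promoters were found for 3 of the 5 marker genes given for these cells (Mmp13, Bmp4 and Ackr4), and the windows of Bmp4 and Ackr4 held neither motif. A match of letters is a description and not a shown binding site.

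Mmp13-high cells numbered 306 in WT, 289 in R76W and 112 in D130. They were 28.2% (25.6 to 31.0) of the 1084 gate cells in WT, 30.4% (27.5 to 33.5) of 950 in R76W and 12.7% (10.6 to 15.1) of 881 in D130. The D130 library was thus low and its counting interval did not meet those of the other libraries, whose intervals overlapped each other. The same order held for any Mmp13 at all: 67.1%, 71.2% and 50.5% of gate cells had at least 1 Mmp13 UMI. As background, in cell types that should lack the gene, an Mmp13 UMI was seen in 1.77%, 4.06% and 4.91% of erythroid cells, at median depths of 24178, 30055 and 30582 UMIs, and in 2.04%, 1.32% and 1.45% of leukocytes, at 8720, 6590 and 10666 UMIs. The Mmp13-high cells had median depths of 6258, 8312 and 8104 UMIs.

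No gap in the distribution of Mmp13 set these cells off. In WT, 22.5% of gate cells lay above 0 and under 5 UMIs per 10000, 16.3% from 5 to under 10, 15.3% from 10 to under 20, 11.0% from 20 to under 50 and 1.94% at 50 or more. The R76W library held more cells in the highest bins, 14.3% from 20 to under 50 and 2.63% above. D130 was lower in each bin from 5 upwards, with 5.45% and 0.681% in those same bins, and 49.5% of its cells had no Mmp13 UMI against 32.9% in WT and 28.8% in R76W. Just outside the limit, from 8 to under 10 UMIs per 10000, lay 67, 66 and 25 cells, and just inside it, up to 12, lay 45, 34 and 18. The mean of the 20 cells nearest below the limit was 9.66, 9.60 and 9.15, against 10.4, 10.6 and 10.9 for the 20 nearest above.

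**Figure D1:**
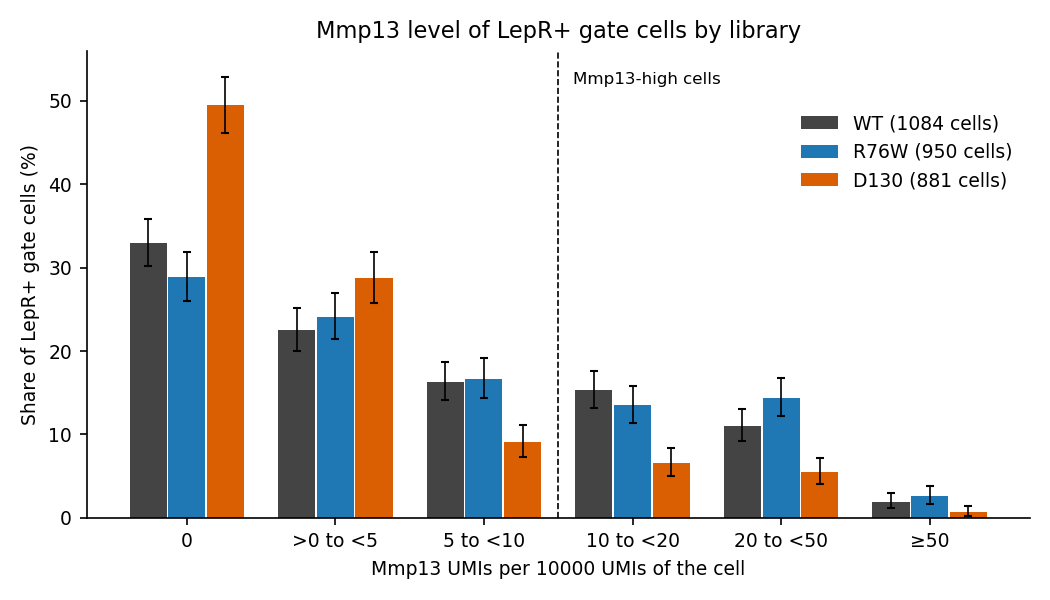
Share of LepR+ gate cells (%, vertical axis) in each bin of Mmp13 UMIs per 10000 (horizontal axis) in the WT, R76W and D130 libraries, with exact Clopper-Pearson 95% intervals; the dashed line marks the limit of 10. D130 holds 49.5% of its cells in the bin at 0 and the lowest share in each bin from 5 upwards, and the bars fall without a gap at the limit.

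The lower share in D130 was seen at each depth and under each other limit tried. With a limit of 5 the shares were 44.6%, 47.1% and 21.8%, and with a limit of 20 they were 12.9%, 16.9% and 6.13%. Among gate cells of 1000 to under 5000 UMIs the shares were 24.9%, 26.1% and 13.8%, and from 5000 to under 10000 UMIs they were 29.2%, 27.4% and 11.5%. Above that depth they were 46.2% (18 of 39 cells), 37.8% and 14.4%. Each cell was also thinned to 2000 UMIs, which left out 59, 25 and 15 shallower gate cells. The gate and the Mmp13 limit were applied again to the thinned counts. The gate then held 896, 834 and 707 cells, not the same set as before, and the shares were 30.6%, 36.8% and 16.3%. Immediate early RNA, which cell handling can raise, was given for each cell as the sum of the 20 genes listed here, and the gate cells of all libraries were split into 3 equal parts by it. From the lowest to the highest of these parts, Mmp13-high cells were 32.9%, 29.3% and 22.2% of WT cells, 27.8%, 38.4% and 24.2% of R76W cells and 13.8%, 16.6% and 9.41% of D130 cells. The D130 share was the lowest in each part.

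The gate left out cells with Alpl, the tissue-nonspecific alkaline phosphatase, and Wif1, a secreted Wnt inhibitor, which mark osteoprogenitors in marrow stroma. Those cells, otherwise gated alike, numbered 235, 121 and 86. Mmp13 reached the limit in 53.2% (46.6 to 59.7), 53.7% (44.4 to 62.8) and 51.2% (40.1 to 62.1) of them, so that the 3 libraries lay within each other's intervals and the low D130 share of the LepR+ gate was not seen there. The Alpl and Wif1 cells were 17.8% (15.8 to 19.99), 11.3% (9.46 to 13.3) and 8.89% (7.18 to 10.9) of both gates together. Over both gates together, the Mmp13 limit was reached by 32.7%, 33.1% and 16.1% of cells. The level of Mmp13, as CPM (counts of a gene summed over cells and scaled to a fixed total of UMIs), was not low in D130 osteoprogenitor cells either. In the osteoprogenitor gate it was 2055 (1986 to 2126), 2360 (2270.05 to 2453) and 2645 (2541 to 2753), lowest in WT and highest in D130 with intervals apart. Those intervals leave out variation between cells, and a single cell gave 6.20%, 6.63% and 10.5% of these UMIs. The median cell, in the unit of the Mmp13 limit, stood at 11.5, 14.2 and 10.4, so D130 was lowest by that measure. In the whole LepR+ gate the summed level was 922 (899 to 946), 1073 (1051 to 1096) and 471 (456 to 487). In osteoblast-gate cells, with abundant Col1a1 and Ibsp, it was 258, 226 and 339 CPM, of which a single cell gave 27.2%, 53.9% and 21.3%. Erythroid cells and leukocytes stood at 0.895 to 8.39 and 0.962 to 1.35 CPM; 81.2% of the Mmp13 UMIs in D130 erythroid cells came from 1 cell.

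Within the Mmp13-high cells themselves the level of Mmp13 was much alike in the 3 libraries, above the lower limit that they share. The median was 18.7 UMIs per 10000 in WT (quartiles 14.0 and 28.3), 22.2 in R76W (14.7 and 34.0) and 19.5 in D130 (13.9 and 31.1), and the highest cells reached 103, 132 and 102. These rested on a median of 11, 19 and 16 Mmp13 UMIs in a cell, with 2 as the fewest. Summed over cells the level was 2455 CPM (2385 to 2526), 2683 (2621 to 2746) and 2564 (2465 to 2666). In the other LepR+ cells it was 267 (252 to 283), 281 (267 to 295) and 159 (149 to 169), so that D130 was low also among the cells below the limit.

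The label of these cells carried 4 further markers. Bmp4, a bone morphogenetic protein that drives osteogenic differentiation, stood at 491 (460 to 524), 236 (218 to 255) and 420 (380 to 462) CPM in Mmp13-high cells and at 404, 166 and 261 CPM in the other LepR+ cells. The R76W library was low in both kinds of cell, and in each library Mmp13-high cells were above the others, by log2 0.28 (0.17 to 0.40), 0.50 (0.35 to 0.65) and 0.68 (0.53 to 0.84). Ackr4, an atypical receptor that takes up the chemokines CCL19, CCL21 and CCL25, stood at 453, 360 and 473 CPM against 360, 290 and 354. Its difference was log2 0.33, 0.31 and 0.42, and at least 1 Ackr4 UMI was seen in 80.4%, 86.2% and 85.7% of Mmp13-high cells against 74.0%, 76.1% and 81.1% of the others. In erythroid cells an Ackr4 UMI was seen in 0.883%, 0.508% and 2.26%, and in leukocytes in 1.02%, 1.32% and 1.45%. Most LepR+ cells of either kind thus had an Ackr4 UMI.

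A2m, the broad protease inhibitor alpha-2-macroglobulin, differed most between the libraries. It stood at 70.3, 123 and 19.2 CPM in Mmp13-high cells and at 43.7, 45.9 and 7.98 in the others, a difference of log2 0.67 (0.36 to 1.01), 1.41 (1.18 to 1.67) and 1.17 (0.43 to 2.05). The D130 value rested on 19 UMIs in 5 cells, of which 1 cell gave 52.6%. An A2m UMI was seen in 20.6%, 28.03% and 4.46% of Mmp13-high cells, so most of them had none. None of 98 WT leukocytes had one, which allows a share of up to 3.06%, the share that 3 counts would give. Dkk3, a secreted Dickkopf family glycoprotein, stood at 63.0, 102 and 31.3 CPM against 51.1, 71.5 and 27.7. Its intervals for the ratio included no difference in WT (log2 -0.03 to 0.63) and in D130 (log2 -0.42 to 0.73), but not in R76W (log2 0.28 to 0.74). A2m and Dkk3 were both lowest in D130 and highest in R76W, in Mmp13-high cells and in the others. Each marker thus stood higher in Mmp13-high cells of each library, Dkk3 within counting error in WT and D130. Bmp4 was also found in 65.4%, 50.7% and 62.7% of the other LepR+ cells, and A2m marked a minority of the Mmp13-high ones.

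The markers followed the level of Mmp13 across the gate to different degrees. From the cells with no Mmp13 UMI to those with 50 or more per 10000, Bmp4 stood at 317 and 509 CPM in WT, 144 and 251 in R76W and 204 and 655 in D130. Across single cells of the gate, Spearman's rho with Mmp13 was 0.22, 0.15 and 0.21 for Bmp4 (n = 1084, 950 and 881 cells), 0.14, 0.19 and 0.21 for Ackr4, 0.12, 0.19 and 0.04 for A2m and 0.10, 0.14 and 0.06 for Dkk3. Cells of 1 library share its depth and its free RNA, and weak correlations in sparse counts are no finding. Among the Mmp13-high cells alone Bmp4 had a rho of -0.00, 0.05 and 0.09 (n = 306, 289 and 112).

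**Figure D2:**
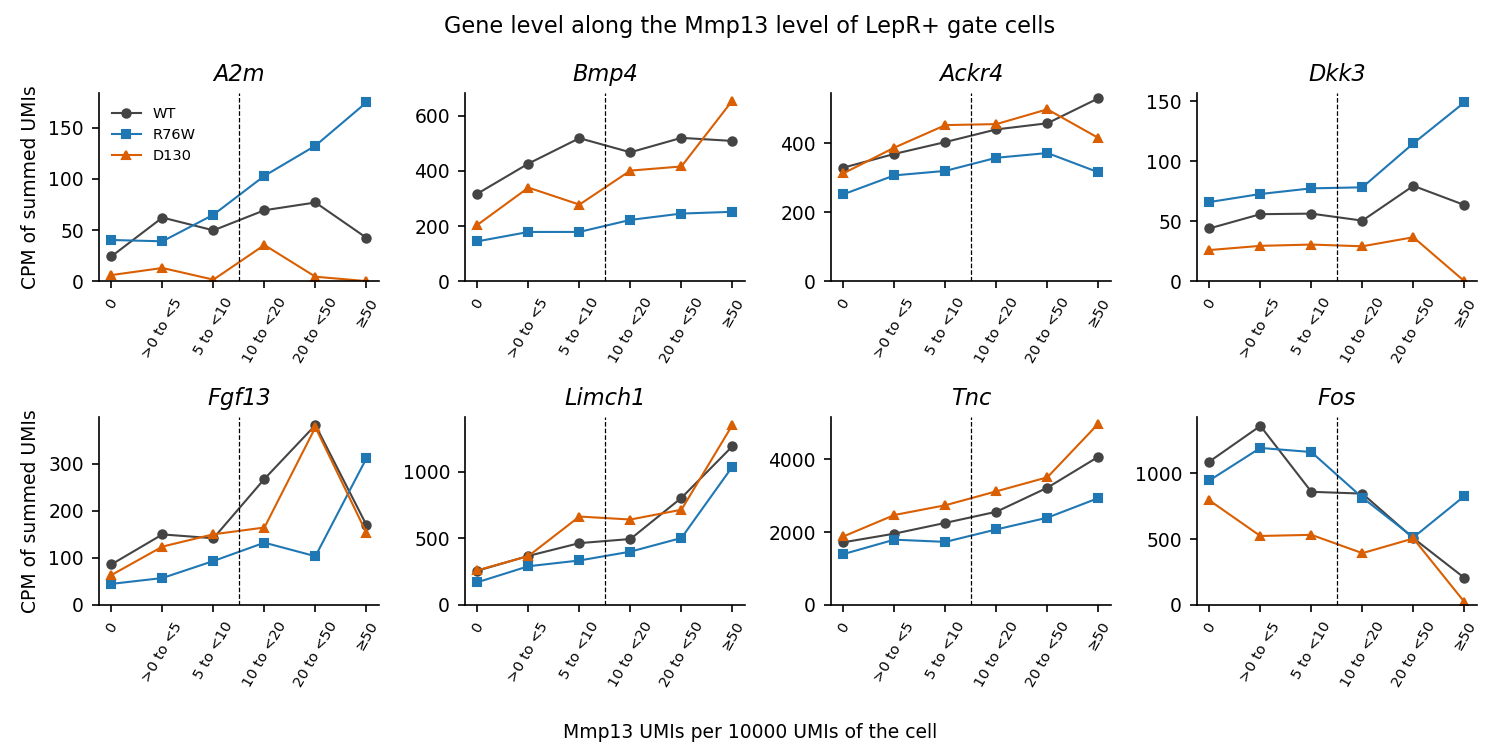
Level (CPM of summed UMIs, vertical axes) of A2m, Bmp4, Ackr4, Dkk3, Fgf13, Limch1, Tnc and Fos in bins of Mmp13 UMIs per 10000 (horizontal axes), with 1 line per library and the limit of 10 as a dashed line. Limch1 and Tnc are higher in the bin of 50 and over than in the bin at 0 in each library, Limch1 at 1194 against 256 CPM in WT.

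Both kinds of cell had to pass the limits on Cxcl12 and Lepr, so a LepR+ identity was set by the rule in both. Kitl, a gene outside the rule that codes for stem cell factor, stood at 2563, 2134 and 3003 CPM in Mmp13-high cells. In the others it stood at 2594, 2639 and 3020. Lepr, the leptin receptor and a gene of the rule, stood at 2145, 2292 and 1351 against 2211, 2511 and 1645. It was lowest in D130 in both. Adipoq, the adipokine that marks the adipocyte-primed part of this stroma, was lower in Mmp13-high cells at 1310, 832 and 984 CPM, against 1638, 1055 and 1193 (log2 -0.32, -0.34 and -0.28). Of the 19 measured genes of the identity and niche list, 4 were higher in the 3 libraries, 5 lower, and the median log2 difference was 0.07, -0.06 and -0.01, against 0.00, -0.00 and -0.03 over all measured genes.

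Markers of other cell types were read in both kinds of cell, and their part in the results was not tested. Summed erythroid marker RNA stood at 273, 113 and 133 CPM in Mmp13-high cells and 263, 96.2 and 143 in the others. Most of it came from hemoglobin genes, which the rule caps in both kinds of cell. Neutrophil markers stood at 18.4, 54.3 and 56.5 CPM against 79.4, 51.98 and 73.7, and were thus lower in WT Mmp13-high cells than in the other WT cells. Monocyte and macrophage markers stood at 3.67, 7.12 and 15.1 CPM against 11.2, 8.29 and 14.3, endothelial markers at 7.87, 23.6 and 6.05 against 14.8, 26.9 and 6.92, and megakaryocyte markers at 2.62, 6.37 and 7.06 against 5.61, 6.08 and 20.8. Of the 8 chondrocyte markers, Acan, Col9a1, Col10a1, Matn1 and Hapln1 had no UMI in the Mmp13-high cells of any library and the list summed to 8.40, 15.4 and 16.1 CPM. Clec3b and Dpt, which define marrow fibroblasts, were also at 0 in Mmp13-high cells. Both were scarce in the other LepR+ cells, Clec3b at 1.57, 1.47 and 0.903 CPM and Dpt at 0, 0.184 and 0. The fibroblast list summed to 19.4, 26.2 and 21.2 CPM in Mmp13-high cells against 19.3, 30.04 and 25.1 in the others. Fn1 gave the most of it, at 16.3, 22.8 and 20.2 CPM against 13.01, 13.5 and 11.6. Osteoblast markers summed to 7059, 7683 and 4672 CPM, of which Ibsp gave the most, against 9008, 7870 and 5708 in the other LepR+ cells and 130713 to 227382 in osteoblast-gate cells.

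Over the 12958 genes measured, with at least 30 UMIs in the gate, 41 genes (0.316%) were at least 1.5 times higher in Mmp13-high cells in each of the 3 libraries and 76 (0.587%) at least 1.5 times lower. Within WT alone 4.84% of genes were that much higher and 7.21% lower, within R76W 4.5% and 5.7%, and within D130 6.14% and 12.4%. Without regard to size, 16% were higher in the 3 libraries and 18.2% lower. The counts are descriptions of 1 library per genotype. Ratios below are log2 of CPM plus 1, which understates the differences of low genes.

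The 15 genes that stood highest in Mmp13-high cells are given first. Fgf13, an intracellular fibroblast growth factor homologue that binds sodium channels and microtubules, stood at 305, 134 and 263 CPM against 122, 61.4 and 94.0 in the other LepR+ cells. The difference was log2 1.32 (1.16 to 1.5004), 1.11 (0.91 to 1.35) and 1.48 (1.27 to 1.70), and R76W was the low library in both kinds of cell. Limch1, an activator of non-muscle myosin, stood at 670, 505 and 709 CPM against 345, 258 and 340, a difference of log2 0.95, 0.97 and 1.06. Among Fgf13, Limch1 and Ank3, the ratio of Limch1 varied least between the libraries. Ank3, which codes for ankyrin-G, a linker of membrane proteins to the spectrin skeleton, stood at 290, 934 and 292 CPM against 149, 513 and 122. R76W was high in both kinds of cell, and the difference within a library was log2 0.95, 0.86 and 1.25.

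Slc40a1 codes for ferroportin, the cellular iron exporter. It stood at 181, 157 and 168 CPM against 110.1, 78.2 and 91.2 (log2 0.71, 0.99 and 0.87). Sema7a, a membrane-anchored semaphorin, stood at 54.6, 54.7 and 44.4 CPM against 28.9, 31.9 and 27.1. Cpa6, a secreted carboxypeptidase, stood at 67.2, 68.2 and 81.7 CPM against 36.1, 30.04 and 34.8. For these 3 genes the Mmp13-high cells of the 3 libraries lay close together and above the other cells of every library. Syt6, a synaptotagmin, was lower overall in R76W, at 60.4, 23.2 and 46.4 CPM against 33.4, 9.22 and 14.7. Nav2, a cytoskeleton-associated navigator protein, was in contrast high in R76W, at 71.9, 249 and 36.3 CPM against 44.2, 116 and 20.6. Ccn4, a matricellular protein known as a Wnt target, was scarce but separated the cells in each library, at 22.6, 20.2 and 16.1 CPM against 9.20, 9.03 and 6.92. The remaining genes of the 15 were Ppfibp2, Cadm1, Greb1, Fhod3, Gm13889 and A2m. Greb1 rested on 2 UMIs against none in D130, and stood at 66.3 against 15.1 CPM in R76W.

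Most of these genes were higher still in the Alpl and Wif1 osteoprogenitor cells that the gate leaves out. Of the 15, 10 stood above the Mmp13-high cells there in each library and 14 stood above the other LepR+ cells in each. The same count over all measured genes was not made, so whether these genes differ from the rest in this is not shown. Limch1 reached 2038, 1498 and 2175 CPM in those cells, Nav2 312, 541 and 304, and Syt6 192, 118 and 146. Fgf13 was an exception: at 205, 91.6 and 83.3 CPM, it was lower there than in the Mmp13-high cells of each library. Alpl itself, capped by the rule, was at 58.8, 57.7 and 39.4 CPM in Mmp13-high cells against 34.5, 34.1 and 25.3 in the others.

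The 15 genes that stood lowest in Mmp13-high cells follow. Il1rapl1, a receptor-like protein that organizes synapses, stood at 16.8, 38.9 and 5.05 CPM against 59.0, 83.1 and 37.0, with UMIs in 9, 31 and 2 Mmp13-high cells. Slc1a3, a glutamate and aspartate transporter, stood at 34.6, 70.0 and 80.7 CPM against 79.4, 106 and 151, and WT was low in both kinds of cell. Serpina3n, an acute-phase serine protease inhibitor, stood at 75.6, 71.9 and 78.7 CPM against 125, 114 and 139 (log2 -0.72, -0.66 and -0.82). The Serpina3n levels of the 3 libraries hardly differed within either kind of cell. Cfb, complement factor B, stood at 85.5, 64.4 and 46.4 CPM against 129, 98.6 and 106. Polg2, the accessory subunit of the mitochondrial DNA polymerase, stood at 23.1, 24.3 and 27.2 CPM against 51.4, 57.0 and 58.7, and Prickle1, a planar polarity protein, at 21.5, 29.6 and 25.2 against 41.7, 59.7 and 49.8. Nr2f2, a nuclear receptor also called COUP-TFII, stood at 8.92, 11.6 and 15.1 CPM against 18.8, 25.1 and 25.3. Cacna1e, Itga8, Des, Fos, Adh1, Jup and Ier5 were also among the 15. In the osteoprogenitor cells, 12 of the 15 were also lower than in the other LepR+ cells of each library. Here too the same count over all measured genes was not made.

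**Figure D3:**
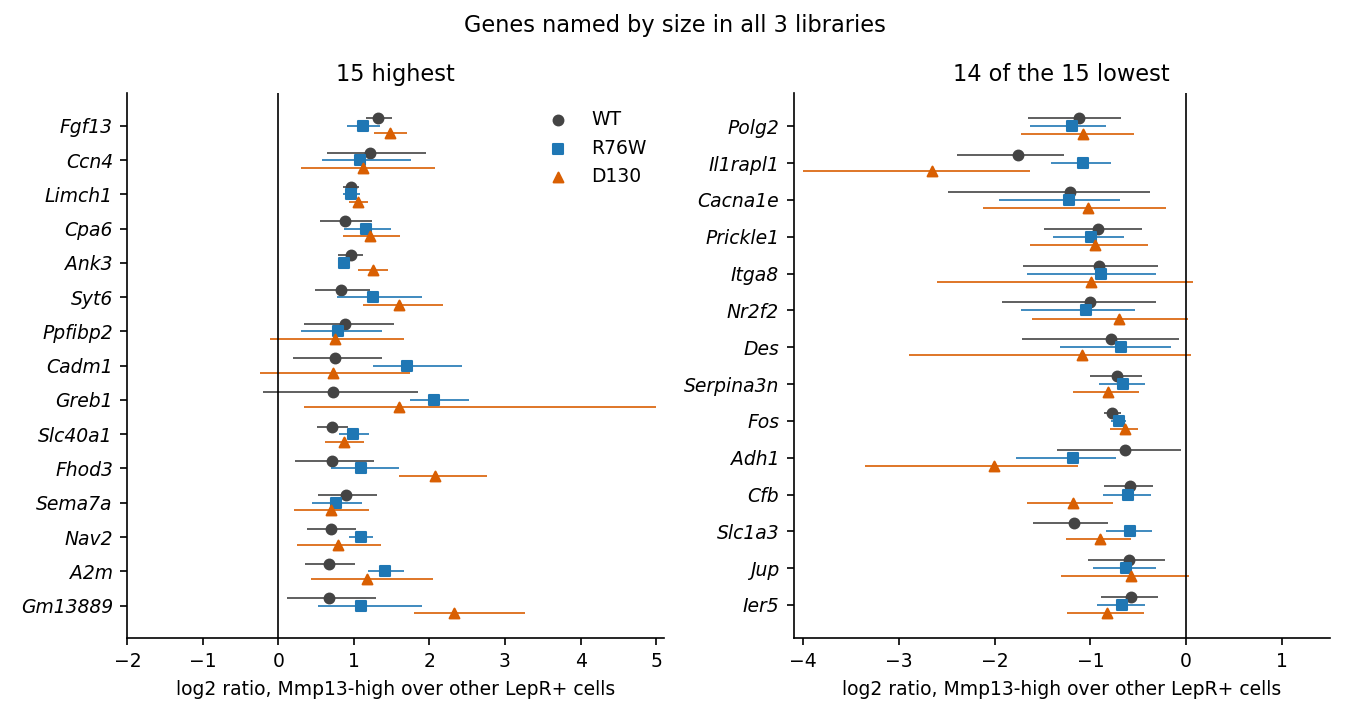
Log2 ratio of CPM (plus 1) in Mmp13-high over other LepR+ cells (horizontal axis) for the 15 highest genes and 14 of the 15 lowest, in 3 libraries, with 95% conditional binomial intervals of the counts; the intervals of Greb1 and Il1rapl1 in D130 run past the ends of the axis. Fgf13 lies between 1.11 and 1.48 and Il1rapl1 between -2.65 and -1.07.

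Gene lists were counted the same way, to be read beside the 16% and 18.2% of all measured genes that were higher or lower by any size in the 3 libraries. By UMIs summed over cells, immediate early genes leaned to the other LepR+ cells. Of 20 measured genes, 14 were lower in Mmp13-high cells in the 3 libraries and none was higher, with a median log2 difference of -0.39, -0.68 and -0.47. The sum of the 20 genes was also read in single cells, in the unit of the Mmp13 limit. Its median was 6.68, 6.57 and 10.4 in Mmp13-high cells against 9.08, 5.91 and 15.6 in the others. The median cell was thus lower in WT and D130 but slightly higher in R76W. Fos, an AP-1 subunit, stood at 664, 673 and 428 CPM against 1132, 1097 and 669. Its summed D130 level was low in both kinds of cell, and the difference within a library was log2 -0.77 (-0.86 to -0.68), -0.70 (-0.78 to -0.63) and -0.64 (-0.79 to -0.50). Fos UMIs were seen in 81 of 306, 57 of 289 and 40 of 112 Mmp13-high cells. In the others they were seen in 253 of 778, 186 of 661 and 336 of 769. The share of cells with a Fos UMI was thus highest in D130 in both kinds, unlike the summed level. After thinning to 2000 UMIs the Fos difference was log2 -0.93, -0.33 and -0.37. The other AP-1 subunits with the most UMIs were Jund at 558, 443 and 515 CPM against 754, 629 and 737, Junb at 466, 307 and 454 against 670, 634 and 628, and Jun at 345, 308 and 418 against 567, 543 and 587. Each of these 4 was lower in the Mmp13-high cells of each library. The list of AP-1, Runx and other factors known to act on Mmp13 gave 4 of 19 genes higher and 7 lower, and shares the Fos and Jun genes with the early response list. Runx2, the master regulator of osteoblast fate, stood at 2244, 2349 and 2096 CPM against 1936, 2314 and 1589. It was higher in WT (log2 0.21) and D130 (log2 0.40), while its R76W interval included no difference (log2 -0.02 to 0.07). Runx1 differed by log2 0.02, 0.01 and -0.04.

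Osteogenic genes were more often higher than lower, while their medians stayed near 0. Of 22 measured osteogenic genes, 10 were higher in the 3 libraries and 2 lower, with medians of 0.05, 0.18 and -0.05. Tnc, the matricellular protein tenascin-C, stood at 2931, 2299 and 3385 CPM against 1927, 1632 and 2181. The difference was log2 0.60 (0.56 to 0.65), 0.49 (0.45 to 0.54) and 0.63 (0.58 to 0.69), and along the bins of Mmp13 the level of Tnc went from 1717 to 4069 CPM in WT. Cdh11, an osteoblast cadherin, was higher by log2 0.23, 0.19 and 0.23. Ibsp, bone sialoprotein, was lower, at 6720, 6720 and 4350 CPM against 7627, 7507 and 5269. Sp7, the osterix gene, was scarce at 47.8, 20.6 and 37.3 CPM against 24.9, 18.2 and 21.7, and reached 123, 79.7 and 74.5 in the osteoprogenitor cells. Kcnk2, a potassium channel, was looked up after its values were seen, and stood at 104, 110 and 103 CPM against 66.8, 38.0 and 46.5.

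Of 15 measured metalloproteinases other than Mmp13, 8 were higher in the 3 libraries and 1 lower. Adamts5, an aggrecanase, stood at 268, 194 and 320 CPM against 181, 114 and 133, a difference of log2 0.56, 0.76 and 1.26 (1.08 to 1.45). It was highest in D130 among Mmp13-high cells and highest in WT among the others. Mmp14, a membrane-bound collagenase that activates other MMPs, stood at 223, 234 and 255 CPM against 179, 221 and 213. Adamts2, which trims procollagen, differed by log2 0.15, -0.12 and 0.23. Of 13 protease inhibitors, 2 were higher and 4 lower, with Serpine2 at log2 0.15, 0.15 and 0.18 and Cst3, cystatin C, at -0.21, -0.18 and -0.38.

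Of 25 collagen and elastic network genes, 9 were higher and 6 lower. Col8a1, a short-chain network collagen, stood at 725, 1654 and 766 CPM against 444, 845 and 532. R76W was the high library in both kinds of cell. Col1a2 differed by log2 -0.41, 0.16 and -0.14, without a common direction, and Fbn1, fibrillin-1, by 0.19, 0.10 and 0.12. Col12a1, a collagen of fibril surfaces, and Ccn2, connective tissue growth factor, were picked after their values were seen. Col12a1 stood at 217, 204 and 172 CPM against 139, 133 and 104, and Ccn2 at 444, 385 and 798 against 275, 260 and 391.

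Among secreted signals, Wnt genes leaned to the Mmp13-high cells: 6 of 16 were higher in the 3 libraries and 1 lower, with medians of 0.10, 0.40 and 0.29. The R-spondins enhance Wnt signalling by sparing its receptors. Rspo2 stood at 706, 887 and 893 CPM against 536, 607 and 511 (log2 0.40, 0.55 and 0.80), and Rspo3 at 410, 361 and 378 against 310.2, 276 and 255. Sfrp1, which binds and blocks Wnts, stood at 167, 135 and 192 CPM against 119, 91.6 and 113. Sfrp4, of the same family, differed by log2 -0.07, 0.02 and -0.23. Of 14 BMP and TGF-beta ligands, 5 were higher and none lower. Bmp6 stood at 1204, 1235 and 1240 CPM in Mmp13-high cells, level across the libraries, against 1066, 1412 and 1124. Bmp5 differed by log2 0.06, -0.08 and -0.28.

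Adipogenic genes leaned the other way. Of 21 measured, 10 were lower in the 3 libraries and none was higher, with medians of -0.23, -0.18 and -0.13. Apoe, which carries lipids, stood at 2531, 1530 and 2568 CPM against 3622, 2418 and 3022. Lpl, lipoprotein lipase, stood at 2408, 2319 and 2862 CPM against 2716, 2571 and 3234. Hp, haptoglobin, an identity-list gene abundant in this stroma, stood at 3743, 2793 and 4089 CPM against 4990, 3915 and 5327. Pparg, the adipocyte master regulator, was not chosen by the rule for named genes and had no common direction, at 280.2, 189 and 561 CPM against 277, 198 and 421. Fabp4, also looked at after its values were seen, stood at 3.67, 2.996 and 0 CPM against 39.7, 60.6 and 53.0, but 51.4%, 87.8% and 34.1% of its UMIs in the other LepR+ cells came from 1 cell.

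Genes of the channels and signal named in the study's title were also read in these cells. Gja1, which codes for Cx43 itself, stood at 954, 1246 and 1468 CPM in Mmp13-high cells and at 706, 1144 and 1173 in the others, so that WT was lowest in both. Gjc1, coding for another gap junction protein, differed by log2 0.15, 0.03 and 0.15, and of 4 measured connexin and pannexin genes 2 were higher in the 3 libraries and none lower. Of 12 measured genes of prostaglandin E2 synthesis, reception and breakdown, 4 were higher and 3 lower. Ptger4, the EP4 receptor, stood at 43.6, 38.2 and 57.5 CPM against 21.3, 29.1 and 39.4. Hpgd, which breaks prostaglandins down, stood at 182, 77.9 and 114 CPM against 156, 57.1 and 92.4, and R76W was low in both kinds of cell. Tnfsf11, the osteoclast factor RANKL, stood at 192, 360 and 147 CPM against 151, 238 and 114.

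Glucocorticoid and metallothionein genes were lower for 6 of 12 and higher for 1, with medians of -0.12, -0.27 and -0.19. The other lists leaned less. Interferon genes were higher for 3 of 25 and lower for 5, inflammatory genes 2 and 5 of 18, chemokines and their atypical receptors 1 and 5 of 15, and unfolded protein response genes 4 and 3 of 15. BMP antagonists, receptors and targets gave 5 and 5 of 20, proteoglycans 5 and 5 of 16, vascular and guidance genes 5 and 5 of 18, IGF genes 3 and 2 of 10, Notch genes 3 and 2 of 10 and cAMP targets 3 and 2 of 14. Osteoclast support gave 2 and 1 of 9 and hypertrophic chondrocyte genes 1 and 1 of 10.

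**Figure D4:**
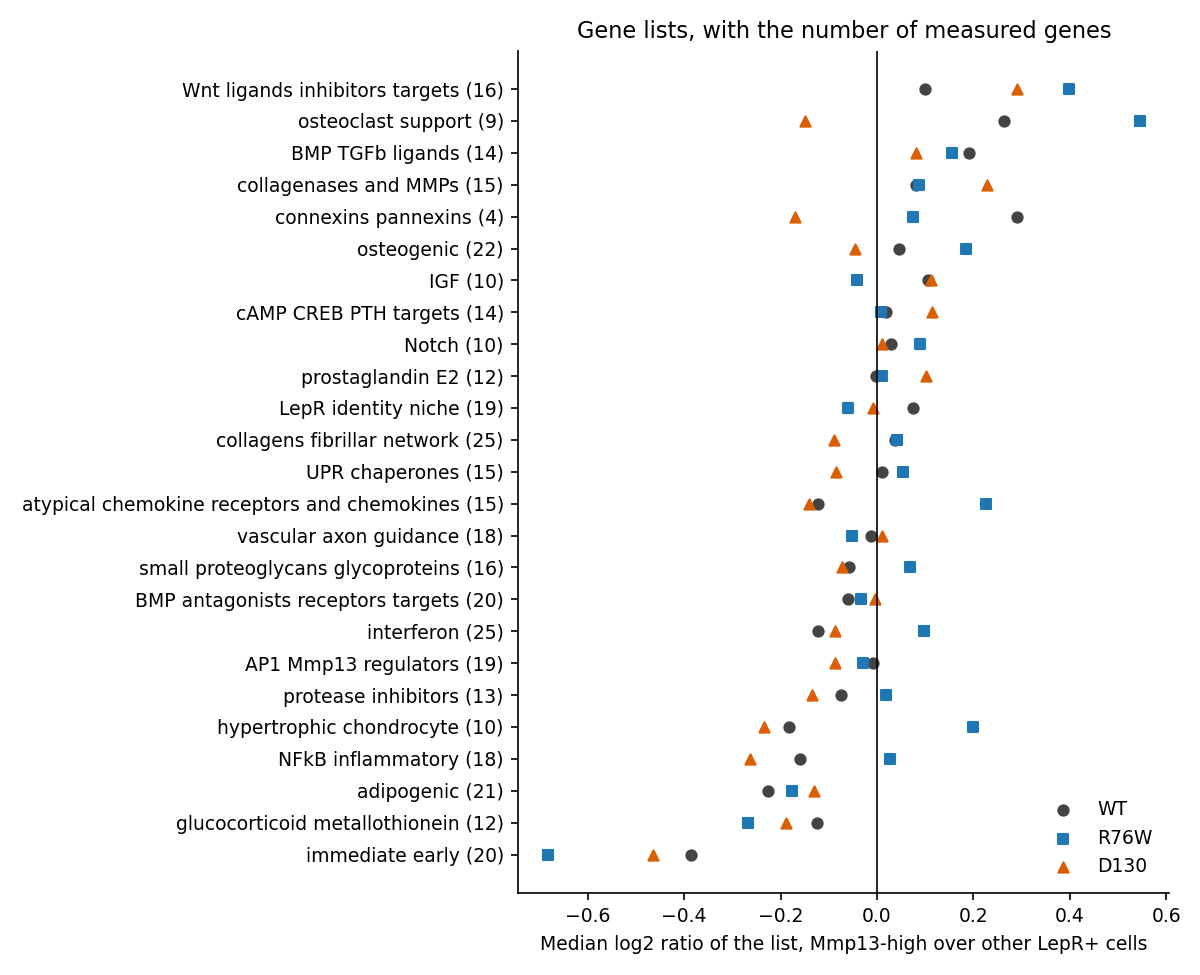
Median log2 ratio of CPM (plus 1) in Mmp13-high over other LepR+ cells (horizontal axis) for 25 gene lists, with 1 point per library and the number of measured genes in brackets. The immediate early list lies between -0.68 and -0.39, and the Wnt list between 0.10 and 0.40.

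Between libraries, the Mmp13-high cells were compared over 10598 measured genes. The comparisons share libraries, and none has a replicate. In R76W Mmp13-high cells, 644 genes (6.08%) exceeded their WT level by at least 1.5 times and 694 (6.55%) fell short of it by as much; in the other LepR+ cells the same counts were 352 (3.32%) and 519 (4.9%). Against WT, 892 genes (8.42%) were that much higher in D130 and 1237 (11.7%) lower, beside 379 (3.58%) and 411 (3.88%) in the other cells. D130 against R76W gave 856 (8.08%) and 1156 (10.9%), beside 410 (3.87%) and 465 (4.39%). The Mmp13-high cells had 991000 UMIs in D130, 1905491 in WT and 2670152 in R76W, fewer than the other cells, and the part of the higher counts that comes from this depth was not tested.

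The genes furthest apart between R76W and WT mostly lay apart in both kinds of cell. Frmd5, a FERM-domain protein at adherens junctions, stood at 5.25, 77.5 and 22.2 CPM in Mmp13-high cells; R76W was above WT by log2 3.65 there and by 2.13 in the others. Kcne4, a potassium channel subunit, stood at 6.82, 56.2 and 14.1 CPM, with log2 2.87 and 0.99. Sfrp2, a secreted Wnt modulator, stood at 9.97, 53.6 and 17.2 CPM, with log2 2.31 and 0.90. R76W was the high library for each of these 3. G530011O06Rik (log2 3.99), Greb1 (2.84), 5430419D17Rik (2.70) and Gm29684 (2.41) completed this group with Zmat4, of whose R76W UMIs 1 cell gave 52.9%.

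On the low side, Gabrg3, a GABA receptor subunit, stood at 44.6, 7.49 and 73.7 CPM, with log2 ratios of R76W to WT of -2.43 in Mmp13-high cells and -0.57 in the others. Timp4, an inhibitor of metalloproteinases, stood at 43.0, 9.74 and 37.3 CPM (log2 -2.04 and -1.25), and Rerg, a growth inhibitor of the Ras superfamily, at 49.9, 12.7 and 37.3 (log2 -1.89 and -1.77). Comp, cartilage oligomeric matrix protein, stood at 37.8, 8.61 and 6.05 CPM and was thus highest in WT, with log2 -2.01 in R76W and -2.46 in D130; among the other LepR+ cells the differences were -0.82 and -0.12. Wdr72, Hsf2bp, Gm42705 and Syt6 were lower in R76W by log2 values of -1.83 to -1.34.

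For D130 against WT, some of the largest values rested on few cells. Ccl2, a chemokine for monocytes, stood at 49.9, 86.5 and 298 CPM in Mmp13-high cells, and D130 was above WT by log2 2.55 there and 3.18 in the other cells. Cxcl1, which attracts neutrophils, stood at 7.87, 0.375 and 46.4 CPM (log2 2.42 and 0.92). Its D130 UMIs came from 12 cells, 1 of which gave 41.3%, and those of Ccl2 from 35 cells, 5 of which gave 62.7%. The Cxcl1 ratio was log2 1.01 at an Mmp13 limit of 5, 3.52 at a limit of 20 and 1.06 after thinning. Cxcl13 stood at 3.67, 1.12 and 54.5 CPM, but its D130 UMIs came from 5 cells, 1 of which gave 72.2%, and the level without the top cell of each library was 15.3 CPM in D130 against 3.16 in WT. Lrrtm4 and Kit rested likewise on 1 cell for 52.2% and 71.7% of their D130 UMIs; without the top cell of each library they stood at 44.2 and 13.4 CPM in D130, against 4.22 and 9.495 in WT. Zbtb16, a zinc finger factor that glucocorticoids induce, stood at 23.6, 64.4 and 106 CPM (log2 2.12 and 2.49), and Phlda1, an early response gene, at 19.4, 50.2 and 95.9 (log2 2.25 and 1.62). D130 was highest for both in the Mmp13-high cells. Bnip1 stood at 8.92, 16.5 and 33.3 CPM, with log2 1.79 in these cells and 0.08 in the others.

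Ptn, the heparin-binding growth factor pleiotrophin, stood at 29.4, 74.5 and 2.02 CPM in Mmp13-high cells. The D130 value is 2 UMIs, and the interval of its log2 ratio to WT ran from -6.94 to -1.94; the other LepR+ cells differed by log2 -2.42. Palmd, a paralemmin relative, stood at 26.8, 28.5 and 3.03 CPM on 3 UMIs in D130, with an interval of -5.47 to -1.52. Cish, a feedback inhibitor of cytokine signalling through STAT5, stood at 32.0, 39.3 and 7.06 CPM (log2 -2.03, and -1.49 in the others). D130 was the low library for these 3 genes. Snap29, a vesicle fusion protein, stood at 24.7, 22.5 and 5.05 CPM (log2 -2.09, and -0.20 in the others). Hpse2, Zfp804b and Gm32031 were lower in D130 by log2 values of -2.38 to -2.12, and 1 cell gave 56.9% of the WT UMIs of Hpse2.

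**Figure D5:**
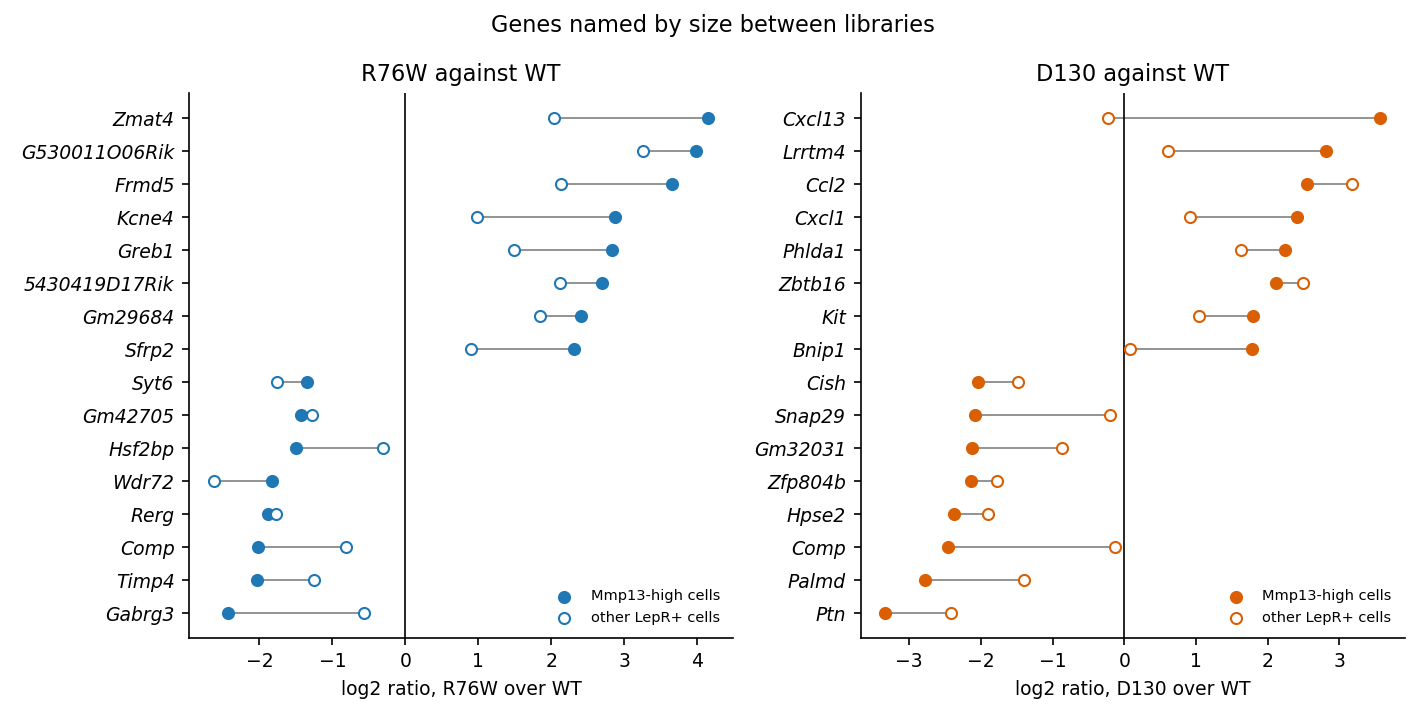
Log2 ratio of CPM (plus 1) to WT (horizontal axis) for the 8 highest and 8 lowest genes in R76W and in D130, with filled points for Mmp13-high cells and open points for other LepR+ cells. Frmd5 lies at 3.65 and 2.13 in R76W, and Cxcl13 at 3.57 and -0.23 in D130.

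The medians of several lists differed between the libraries. Some did so alike in Mmp13-high and other LepR+ cells and some in only 1 kind of cell or in opposite directions. Whether the 2 kinds of cell differed in this was not tested. Glucocorticoid and metallothionein genes had a median of log2 0.53 for D130 against WT in both kinds of cell, and 6 of 12 were at least 1.5 times higher in the Mmp13-high cells and 5 in the others, where 8.42% and 3.58% of all measured genes were. Unfolded protein response genes had medians of 0.34 and 0.35, with 4 and 6 of 15 that much higher. Inflammatory genes had medians of 0.40 and 0.39, with 6 and 3 of 14 that much higher. Adipogenic genes had a median of 0.25 in D130 Mmp13-high cells and -0.00 in the others, prostaglandin E2 genes -0.31 and 0.23, and Wnt genes -0.11 and -0.37. For R76W against WT, collagen and elastic network genes had medians of 0.39 and 0.29, cAMP targets 0.34 and 0.40, chemokines -0.38 and -0.56 and osteogenic genes 0.08 and -0.24. The median over all measured genes lay between -0.01 and 0.01 in these comparisons. Bmp4 followed the libraries too, with log2 ratios of R76W to WT of -1.06 in Mmp13-high cells and -1.27 in the others, and so did Ank3, with R76W above WT by 1.69 and 1.78.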

How the data were processed

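Droplet single-cell libraries of sorted marrow stroma were analysed, 1 per genotype. The values are unnormalized UMI counts for each gene in each barcode, deposited as sparse matrices and written by Cell Ranger 7.0.1 per the file headers. Seurat and the mm10 build are also named, per the submitters' processing notes. Multimapping and intron settings are not given in the sources used here.

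UMIs were summed over cells of a kind in each library and given as CPM of that sum, with exact Poisson 95% intervals; shares have exact Clopper-Pearson intervals and ratios conditional binomial ones, all for counting error only. PCR copies are collapsed by UMIs, but cells of 1 library are not replicates, so no test was run. Ratios used a pseudocount of 1 CPM. Genes with at least 30 UMIs over the gate of the 3 libraries and 1 in each were measured against other LepR+ cells, and genes with at least 30 UMIs over Mmp13-high cells were measured between libraries; genes of the rule were left out of counts.

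Named genes were the 15 highest and 15 lowest by their least favourable library, with at least 50 UMIs, 20 Mmp13-high cells with a UMI and 20 CPM in 1 library, the 8 highest and 8 lowest between libraries (10 cells, intervals apart), the 5 markers, and up to 4 genes of each of 25 lists with the most UMIs; mitochondrial, ribosomal, blood, Y-linked, Xist and Tsix genes were left out, and 1 of the 15 lowest is not reported here. The cells and the lists were chosen with earlier results of these data known. Doublets were kept; Scrublet's automatic threshold called 0, 6 and 33 kept cells, too few in WT and R76W to have worked, so there the 153 and 26 cells with the top scores were taken as doublets in the alternative; 0, 7 and 0 of the cells so removed were Mmp13-high. Alternatives were other limits on Mmp13, depth and hemoglobin, Scrublet calls removed, thinning, other pseudocount, filter and centring, equal weight per cell, and each library left out; leaving out cells rich in Col1a1 or the top cell of a gene was added after seeing the data. Scripts were tested on simulated counts. Python 3.11.15, numpy 2.4.6, scipy 1.17.1, pandas 2.3.3, scanpy 1.11.5 and matplotlib 3.10.9 were used.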

Additional observations from a re-analysis of the deposited data

Results flagged for a closer look

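Of 409 measured genes that were named or on a list, 10 had a difference between Mmp13-high and other LepR+ cells past 1.5 times in opposite directions in different libraries, with counting intervals that did not include a log2 ratio of 0. Over 12831 measured genes the same was true of 34 (0.265%). These differences between libraries were not tested, and the values are log2 ratios.

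Genes of mature osteoblasts and cartilage gave 3 of them. Col1a1, type I collagen, was at -2.02 in WT, 1.63 in R76W and -0.73 in D130. Bglap, osteocalcin, was at -3.58 in WT and 0.74 in R76W, and Col11a2 at -1.97 in WT and 2.15 in R76W. A single cell gave 75.9% of the Col1a1 UMIs, 82.6% of the Bglap UMIs and 89.8% of the Col11a2 UMIs of the other LepR+ cells in WT. In R76W, 1 Mmp13-high cell gave 56.1% and 80.6% of the Col1a1 and Col11a2 UMIs. Without 6 cells of at least 50 Col1a1 UMIs per 10000 (2 WT and 1 D130 among the others, 3 R76W among the Mmp13-high), Col1a1 stood at 0.04, 0.05 and -0.09, Bglap at -1.04, -0.10 and 0.22, and Col11a2 at 0.62, -0.18 and 0.24.

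Chemokine and interferon genes gave 6. Ccl2 was at 1.11 in R76W and -0.81 in D130, Ccl7 at 0.73 and -1.21, and Cxcl9 at 0.84 and -1.34. Cxcl1 was at -2.47 in R76W, on 1 UMI, and at 1.12 in D130, and Cxcl13 at -1.09 in WT and 2.70 in D130. Ifit3, an interferon-induced gene, was at -0.61 in WT, 0.90 in R76W and -1.61 in D130. Among D130 Mmp13-high cells, 1 cell gave 63.9% of the Cxcl9 UMIs, 72.2% of the Cxcl13 UMIs and 41.3% of the Cxcl1 UMIs. In R76W, 1 Mmp13-high cell gave 44.0% of the Cxcl9 UMIs. Without the top cell among Mmp13-high and among other LepR+ cells, Ccl7 and Cxcl9 stood at 0.36 and 0.40 in R76W. Cxcl1 then stood at 0.54 in D130 and Cxcl13 at -0.57 in WT. These values kept their sign but fell short of the size set for the flag. Ccl2 still stood at 0.87 in R76W and -1.08 in D130, and Ifit3 at 0.62 and -1.70. The last gene, Lrrtm4, a synaptic adhesion protein, was at -0.64 in R76W and 2.92 in D130.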

How the results depend on the processing

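No paired analysis was possible because each genotype has 1 library. The order of the shares, with D130 lowest, held under every limit and filter tried, though the shares themselves moved: 44.6%, 47.1% and 21.8% at an Mmp13 limit of 5, 12.9%, 16.9% and 6.13% at 20, and 36.8% in R76W and 16.3% in D130 after thinning. The 41 genes higher in the 3 libraries and the 76 lower became 67 and 135 at a limit of 20 and 18 and 16 with a pseudocount of 5 CPM; without a filter on low counts 124 were lower. With 1 library left out, 115 to 132 genes were higher and 186 to 284 lower in the remaining pair, since fewer libraries must be passed: 123 and 255 without WT, 132 and 284 without R76W, 115 and 186 without D130. A pseudocount of 5 CPM gave 421 genes higher and 388 lower in R76W against WT and 591 higher in D130 against WT. With no filter, 1923 and 2202 genes passed in R76W against WT, 2353 and 3679 in D130 against WT and 2187 and 2813 in D130 against R76W. Of 131 values for named genes, 131 kept their direction under each other setting, 130 at a limit of 20 and with at most 1 hemoglobin UMI, and 121 after thinning. Sizes held less well. At a limit of 20, 26 values left their counting interval, and Cxcl13 in D130 against WT stood at 0.06 there. After thinning, which also changed the set of cells in the gate, 49 did so. Beside them, the 7 given below were past 1.5 times in the main setting and changed sign. Greb1 against the other LepR+ cells in D130 went to 0. The ratio of A2m in D130 was -1.14 at a limit of 20. Thinning gave -1.50 for Cxcl13 and -0.30 for Kit in D130 against WT, and, against other LepR+ cells, -0.067 for Cpa6 and -1.003 for Gm13889 in WT, 0.39 in WT and 0.15 in D130 for Nr2f2 and 0.11 for Des in R76W; the cause was not tested. The D130 cells, 112 in number, limit the scarce genes most.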

Other observations

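A few genes outside the rule for named genes, picked after their values were seen, followed Mmp13 across the whole LepR+ gate and not only past the limit. Lifr, the receptor for leukemia inhibitory factor, stood at 1129 CPM in WT cells with no Mmp13 UMI and at 2232 in those with 50 or more per 10000, at 1507 and 3355 in R76W and at 608 and 1245 in D130. D130 was the low library at both ends. Its Spearman's rho with Mmp13 across gate cells was 0.33, 0.30 and 0.30 (n = 1084, 950 and 881), close to those of Tnc (0.33, 0.31 and 0.32) and Limch1 (0.31, 0.33 and 0.27). Among the Mmp13-high cells alone (n = 306, 289 and 112), the rho of Lifr was 0.16, 0.15 and 0.14, that of Tnc 0.30, 0.16 and 0.25 and that of Limch1 0.23, 0.28 and 0.29. Kcnk2 went from 56.6 to 212 CPM in WT, from 24.8 to 209 in R76W and from 33.8 to 371 in D130 over the same bins. Adipoq ran the other way, from 1761 to 1102, 1190 to 733 and 1296 to 612 CPM. Ibsp was also lower at the high end, from 7867 to 5927, 7847 to 6816 and 5548 to 2293 CPM. Below the limit Ibsp did not fall steadily, with 7989, 7590 and 5377 CPM in the bin of 5 to under 10. The bins of 50 and over held 21, 25 and 6 cells, so the D130 ends rest on few cells.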
